A study of Mus musculus with 9 samples.

Results

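The genes described here are mouse genes that carry no KEGG pathway entry in the deposited annotation, whose level fell in RAW264.7 cells given RANKL, and whose level was higher again when uridine (UD) was given with RANKL. They were chosen by a rule on the measured values: no pathway entry, no kinetochore term among the cellular component annotations, a mean Control FPKM of at least 2, a RANKL/Control ratio of at most 0.67 and a RANKL+UD/RANKL ratio of at least 1.5, with 0.1 added to every group mean. FPKM is the number of reads on a gene scaled by exon length in kilobases and by the counted reads of the library. *Txnip*, *Arrdc4* and genes whose symbol starts with Mir or Snor were left out by name. The rule kept 210 of 56691 genes, of which 40611 have no pathway entry. A further 139 genes with a pathway entry, 10 with the kinetochore term and 17 of the excluded names met the same 3 numeric limits, so that 376 genes in all did. Lacking a pathway entry is a property of the annotation and does not make these genes a functional class. Because the fall and the return chose the members, both are given below as a description. The deposited FPKM are scaled by total counts. When the same limits were applied to values also scaled by TMM, a correction for unequal RNA composition, 155 genes met them, and all 155 were among the 210.

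The cytokine RANKL turns macrophages into osteoclasts, the multinucleated cells that resorb bone. Precursors divide, then leave the cell cycle and fuse, and in doing so lose much of the macrophage programme while switching on bone-resorbing genes. Uridine is a pyrimidine nucleoside that cells take up and convert into nucleotides for RNA and DNA. Many genes of late S phase and mitosis share promoter elements, the CCAAT box bound by NF-Y and the cell cycle genes homology region (CHR) bound by MuvB complexes, through which they are repressed in resting cells and activated in dividing ones.

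Poly(A) RNA was sequenced from RAW264.7, an established mouse macrophage line, in 3 groups of 3 libraries at day 3: untreated cells (Control), cells given RANKL, and cells given RANKL together with UD (RANKL+UD). All libraries came from this 1 line, the sample labels give no doses, and UD without RANKL was not analysed here. The labels call the libraries of a group replicate biosamples, and nothing ties them to separate cultures, so p-values measure the spread between these libraries. Total counts were between 15951800 and 19746862 per library. The macrophage genes of a list of 56 summed to 14399 to 15106 FPKM in Control. They summed to 3729 to 4000 with RANKL and 3246 to 3391 with RANKL+UD. Most of the Control sum came from *Lyz2* and *Lyz1* (means 8000 and 2926 FPKM), which had 1431 and 255 with RANKL. Of the 46 tested genes of that list 38 were lower and 6 higher with RANKL (30.2% and 27.3% of all tested genes). The 19 genes of an osteoclast list summed to 193 to 206, 3279 to 3524 and 2232 to 2264 FPKM in the 3 groups. No gene of the fibroblast list, the lymphocyte list or the epithelial and endothelial list passed the expression filter, and each list summed to at most 1.21 FPKM in any library.

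All 210 members passed the filter of at least 1 FPKM in at least 3 libraries, which kept 11995 genes in all. Their median level with RANKL was 0.467 of Control, and their median level with RANKL+UD was 1.79 times that with RANKL and 0.814 of Control. On the fitted log2 scale the member medians were -1.06 for RANKL against Control, 0.78 for RANKL+UD against RANKL and -0.31 for RANKL+UD against Control, where the medians of all tested genes were -0.03, 0.00 and -0.00. In bulk RNA, fewer cells of a type and less RNA per cell cannot be told apart. By the quasi-likelihood F-test of edgeR, adjusted over all tested genes by Benjamini-Hochberg, 180 members were lower with RANKL (30.2% of all tested genes were) and 164 were higher with RANKL+UD than with RANKL (18.6% of all tested genes were). Both counts follow from the rule. The 30 and 46 members that did not pass were mostly genes of few reads: all 149 members with at least 100 reads in some library passed the former test and 147 passed the latter, whereas of the 12 members with fewer than 10 reads in every library 6 and 1 did. In 190 members every RANKL library lay below every Control library (38.8% of all tested genes), and in 173 every RANKL+UD library lay above every RANKL library (34.1% of all tested genes).

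**Figure D1:**
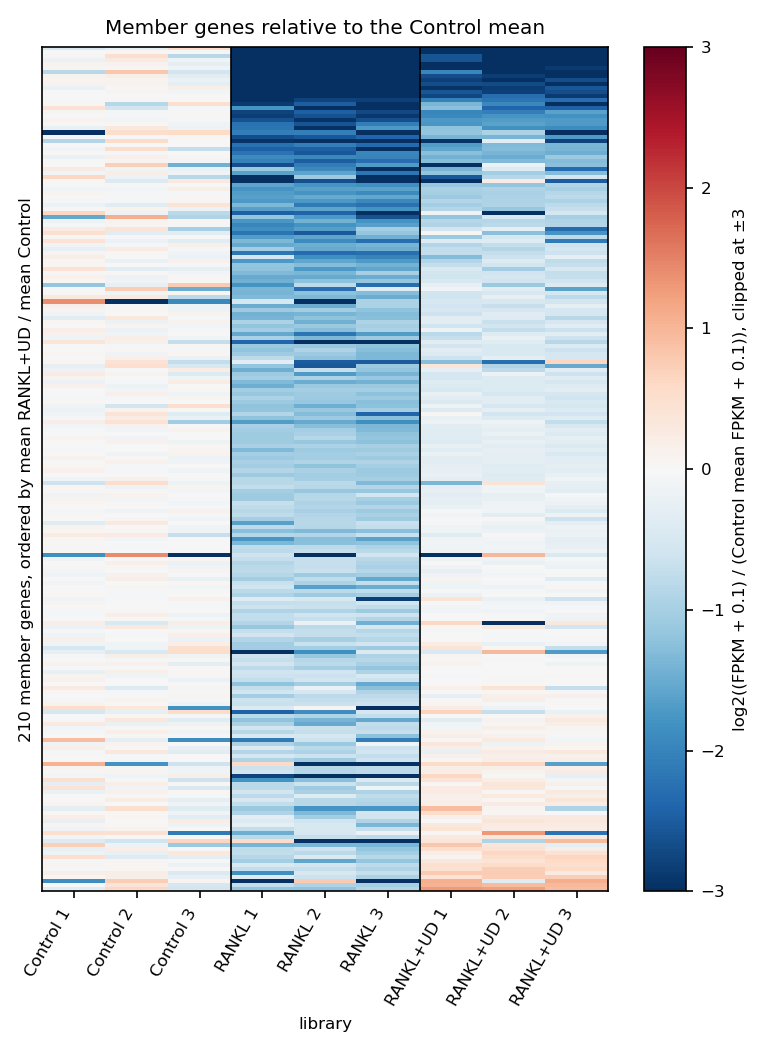
Colour shows log2 of (FPKM + 0.1) in each of the 9 libraries (columns) relative to the Control mean, for the 210 members (rows), ordered from the lowest to the highest RANKL+UD/Control ratio. The RANKL columns are blue almost throughout, the RANKL+UD columns run from blue at the top to red at the bottom, and single rows with mixed colours within a group are genes with few reads.

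How far the level came back was not set by the rule, although it rests on the same group means. RANKL+UD stood between 0.67 and 1.5 times Control in 146 members, between 0.25 and 0.67 in 43, below 0.25 in 15 and above 1.5 in 6. In the edgeR fit 87 members remained below Control with RANKL+UD (27.3% of all tested genes were), 9 were above it (26.7% of all tested genes were), and 114 did not pass the test in either direction. Not passing was more common among genes of few reads. Of the 149 members with at least 100 reads in some library, 79 were below Control, 9 above and 61 did not pass. Of the 49 whose highest count was 10 to 99 reads, 41 did not pass, nor did any of the 12 with fewer than 10. The members just inside each limit were *Gm36401* and *Enkd1* at 2.03 and 2.04 for the Control level, *L3mbtl2* and *Cbx5* at 0.67 and 0.665 for RANKL/Control, and *Trim59* and *L3mbtl2* at 1.5 for RANKL+UD/RANKL. Just outside lay *Cd101* and *Gm25820* at 1.99 and 1.95, *Klhl11* and *Myef2l* at 0.674 and 0.675, and *2510009E07Rik* and *Pkib*, both at 1.5 after rounding.

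**Figure D2:**
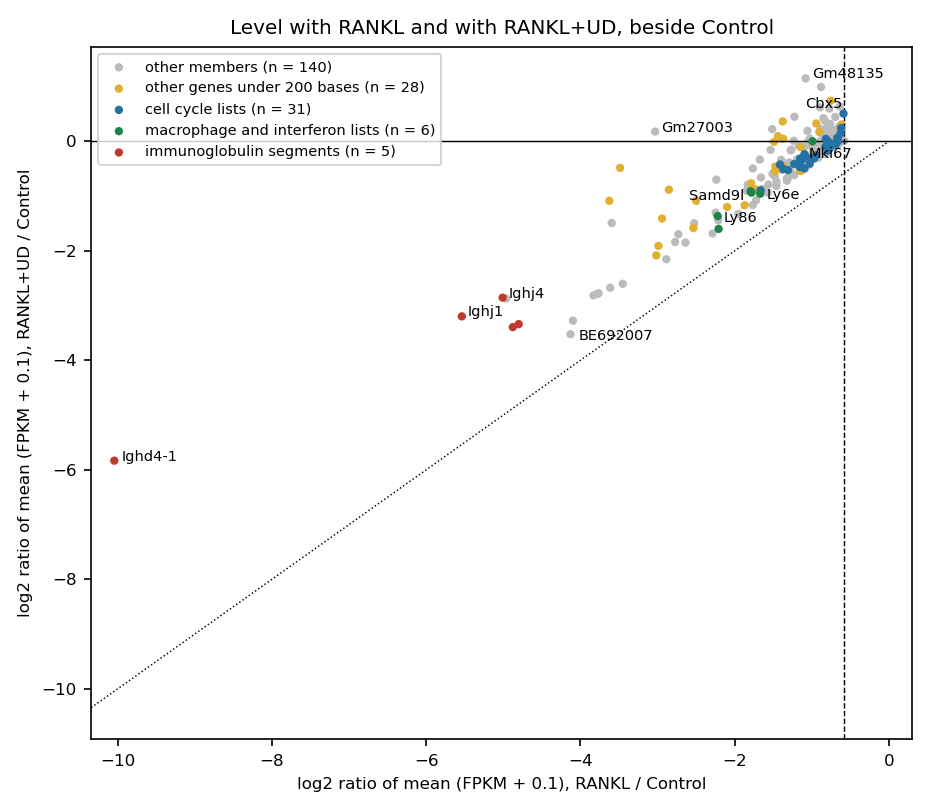
Each point is a member. The horizontal axis is the log2 ratio of mean (FPKM + 0.1) in RANKL to Control and the vertical axis is the same for RANKL+UD to Control; the dashed line is the limit of the rule at a ratio of 0.67, the solid line is the Control level and the dotted line is no change from RANKL. The 31 genes of the cell cycle lists lie between 0.538 and 1.42 times Control, the 5 immunoglobulin segments lie far below Control, and *Gm48135*, at 2.22 times Control, lies highest.

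Among the gene lists, that of the mitotic spindle and cytokinesis held the most members. Of 60 genes of that list, 59 were tested and 15 were members. Over the whole list 57 were lower with RANKL and 55 were higher with RANKL+UD than with RANKL. The list medians were -0.84 and 0.50 on the log2 scale. Of all tested genes 30.2% were lower and 18.6% were higher in these 2 comparisons. *Mki67*, which encodes the Ki-67 protein that coats mitotic chromosomes and marks dividing cells, stood at 103, 100.3 and 113 FPKM in the Control libraries, 51.0, 52.2 and 42.4 with RANKL and 82.3, 85.7 and 84.3 with RANKL+UD. The 3 groups did not overlap, and RANKL+UD remained below Control by a log2 difference of -0.33 (SE 0.0634, edgeR adjusted p = 0.000169). *Kif11*, the kinesin that pushes spindle poles apart, had 27.8, 27.0 and 29.0 FPKM in Control, 12.9, 12.8 and 12.1 with RANKL and 19.1, 20.4 and 20.9 with RANKL+UD. Its RANKL+UD libraries also fell between the other groups without overlap, at 0.722 of Control. *Nusap1*, a spindle microtubule protein, *Prc1*, which bundles microtubules at the spindle midzone, and the mitotic kinesin *Kif20b* showed the same order of groups, with RANKL+UD at 0.753, 0.695 and 0.759 of Control. *Cep55*, a scaffold of the final cut between daughter cells, came back to 0.851 of Control, and its difference from Control (log2 -0.23, SE 0.0691, edgeR adjusted p = 0.0071) no longer passed the test without RANKL+UD replicate 3 (log2 -0.18). *Kif20a*, another midzone kinesin, reached 0.986 of Control, and its RANKL+UD libraries (21.76 to 21.95 FPKM) lay within the Control range of 20.23 to 24.75. Among the 15 members of this list 13 remained below Control with RANKL+UD (27.3% of all tested genes were) and 2 did not pass the test.

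Genes of DNA replication and chromosome duplication stood closer to Control again. All 55 genes of the S-phase list were tested and 12 were members. Of the 55, 48 were lower with RANKL and 50 were higher with RANKL+UD than with RANKL (30.2% and 18.6% of all tested genes). The list medians were -0.45 and 0.51 on the log2 scale. *Asf1b*, a histone chaperone that delivers histones to new DNA, had 24.2, 25.7 and 27.9 FPKM in Control, 9.59, 9.83 and 10.5 with RANKL and 16.8, 20.1 and 17.9 with RANKL+UD. It had the lowest return of these 12 members, to 0.705 of Control. *Slbp*, which binds the stem-loop of replication-dependent histone mRNAs, had 13.5, 12.4 and 10.9 FPKM in Control, 7.32, 8.17 and 7.79 with RANKL and 12.3, 12.6 and 12.2 with RANKL+UD. The RANKL+UD libraries of *Slbp* lay within the Control range, with a log2 difference from Control of 0.01 (SE 0.0698). The replication fork genes *Wdhd1* and *Clspn* reached 1.04 and 0.998 of Control, *Tcf19* 0.805 and *Cdca7*, a partner of a chromatin remodeller, 1.11. The median RANKL+UD/Control ratio was 0.961 over the 12 S-phase members and 0.797 over the 15 spindle members, a difference that was not tested. The S-phase members had also fallen less, with a median RANKL/Control ratio of 0.571 beside 0.468. Their median RANKL+UD/RANKL ratio was 1.67, beside 1.62 for the spindle members. *Pclaf*, which binds the replication clamp PCNA and is in neither list, stood at 50.9, 46.7 and 40.5 FPKM in Control, 25.2, 23.0 and 25.4 with RANKL and 46.8, 44.7 and 45.1 with RANKL+UD, again within the Control range. Pairs of near copies among the members may share reads: *Kifc1* and *Kifc5b* carry the same orthology number in the annotation, as do *Hmgb2* and the processed pseudogene *Gm4739*.

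Of the chromosome structure and nuclear lamina list all 32 genes were tested and 3 were members. Of the 32, 26 were lower with RANKL and 26 were higher with RANKL+UD than with RANKL (30.2% and 18.6% of all tested genes). *Hmgb2*, a DNA-bending chromatin protein, had 157, 148 and 133 FPKM in Control, 84.7, 79.9 and 87.7 with RANKL and 133, 124 and 131 with RANKL+UD. Its RANKL+UD libraries overlapped Control; the log2 difference of -0.17 (SE 0.0576, edgeR adjusted p = 0.0175) no longer passed without Control replicate 1 (-0.11), Control replicate 2 (-0.16) or RANKL+UD replicate 2 (-0.14). *Tmpo*, a lamina-associated protein of the inner nuclear membrane, returned to 0.957 of Control. *Cbx5*, which encodes the heterochromatin protein HP1 alpha, went past Control: 35.7, 35 and 29.9 FPKM in Control, 24.6, 22.8 and 19.4 with RANKL and 47.6, 48.8 and 46.7 with RANKL+UD. It was the only member of the 4 cell cycle lists above Control in the test (log2 0.51, SE 0.0715, edgeR adjusted p = 3.49e-06). *E2f8*, a repressor of the E2F family and the single member among 20 tested cell cycle transcription factors, had 7.55, 8.25 and 10.0 FPKM in Control, 3.38, 2.98 and 3.16 with RANKL and 6.66, 6.49 and 6.02 with RANKL+UD, with no overlap between groups. Among the 20 factors, 12 were lower and 2 higher with RANKL (30.2% and 27.3% of all tested genes). Relative to RANKL, 12 were higher and 2 lower once UD was added (18.6% and 20.2% of all tested genes). The 2 factors higher with RANKL were *Myc* and *Mybl1*. *Myc* ran opposite to the members, with means of 0.767, 36.3 and 14.0 FPKM in the 3 groups. Of the 31 members in the 4 lists together 20 remained below Control, 1 was above and 10 did not pass. Among all 210 members 87 were below, and of all tested genes 27.3% were below Control and 26.7% above.

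Other cell cycle genes among the members lie outside the lists. *Cdca2*, which brings a phosphatase to chromosomes at mitotic exit, had 14.2, 13.2 and 13.5 FPKM in Control, 6.57, 5.85 and 6.62 with RANKL and 11.3, 10.6 and 11.2 with RANKL+UD. The groups did not overlap, and it returned to 0.813 of Control. *Melk*, a kinase of dividing cells, reached 0.946 and the helicase gene *Pif1* 0.773. *Pbk* and *Haspin*, both mitotic kinase genes chosen after their values were seen, lay at 35.3 ± 0.365 and 7.79 ± 0.121 FPKM in Control, 14.7 ± 0.71 and 4.26 ± 0.704 with RANKL and 31.8 ± 2.08 and 8.64 ± 0.52 with RANKL+UD (mean ± SD, n = 3). Members lie within 50 kb of each other in 22 pairs, of which 15 are within the immunoglobulin locus described below, and the other 7 pairs involve 14 members. *Pbk* and the cohesin acetyltransferase gene *Esco2* lie 1216 bases apart on opposite strands, *Hoxb6* overlaps the antisense gene *Hoxb5os*, and *Samd9l* lies 44402 bases from *Gm43196*.

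**Figure D3:**
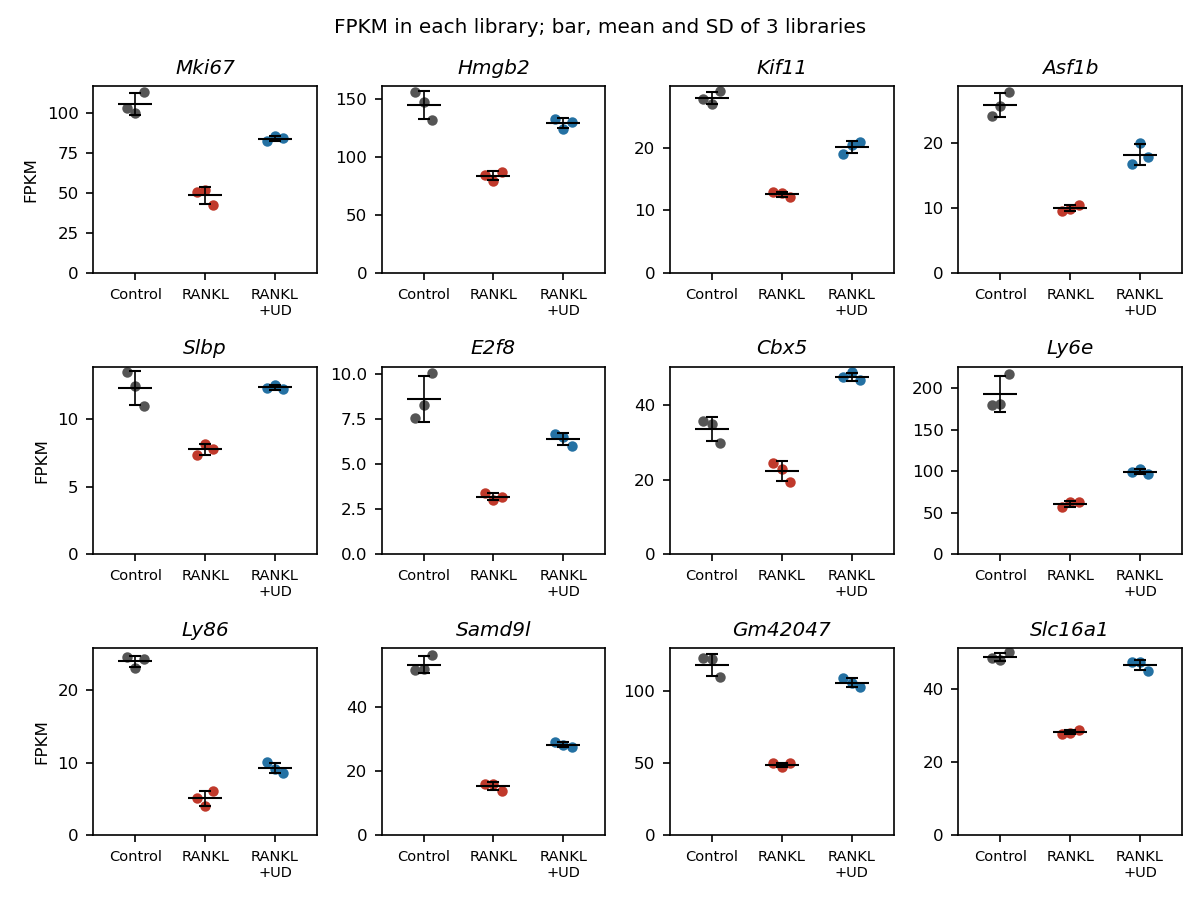
FPKM in each library (points) of 12 members, with the mean and SD of 3 libraries per group (bars); the vertical axes start at 0 and differ between genes. RANKL libraries are lowest for all 12; RANKL+UD libraries lie within or near the Control range for *Slbp*, *Slc16a1* and *Hmgb2*, above it for *Cbx5*, and well below it for *Ly6e*, *Ly86* and *Samd9l*.

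Promoter elements of cell cycle genes occurred in larger shares of the members than of other unmapped genes. A promoter sequence from RefSeq (build GRCm38.p6, 250 bases before to 50 bases after the start) was found for 120 of the 210 members. The CHR was searched as TTTGAA and its variant form as TTCGAA, the CCAAT box by the letters of its name and the core of the interferon-stimulated response element as TTCNNTTTC, on both strands, and no searched motif lies inside another. Either CHR form occurred in 30.8% of member promoters, in 13.5% of 4405 promoters of other tested unmapped genes and in 19.4% of all 27025 promoters. CCAAT occurred in 60 of the 120 member promoters, and in 38.6% and 37.9% of the other sets. CCAAT was found together with a CHR form in 17.5%, 5.36% and 7.70% of the 3 sets. Among the 28 promoters of members in the cell cycle lists the shares were 53.6% for a CHR form, 71.4% for CCAAT and 39.3% for both. The 92 promoters of members outside those lists held a CHR form in 23.9% and CCAAT in 43.5%. The strict E2F forms TTTCGCGC and, separately, TTTGGCGC were rare, with 3 member promoters holding either. Apart from the interferon element, which is described below, the remaining motifs occurred in members no more often than in the other tested unmapped genes. The AP-1 motif TGANTCA was found in 3 of the 120 member promoters, 5.11% of those of the other tested unmapped genes and 7.93% of all promoters, and the E box CACGTG in 9.17%, 10.7% and 7.24%. The ETS motif GAGGAAGT was in 3.33%, 3.38% and 3.28%, and the GC box in 56.7%, 66.1% and 35.9%. The median GC content was 59.7% for member promoters and 61.3% for those of the other tested unmapped genes. These matches describe letters in the sequence and not binding.

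These promoters are shown because they belong to the members described in most detail and show how the elements sit near the start. Capitals mark every match to a searched motif on either strand, so that ATTGG is the CCAAT box and TTCAAA is the CHR when read on the other strand, while GGGCGG is the GC box. The *Mki67* promoter is chr7:135716330-135716629 on the minus strand, that of *Asf1b* chr8:83955444-83955743 on the plus strand, that of *Hmgb2* chr8:57511593-57511892 on the plus strand, that of *Samd9l* chr6:3399522-3399821 on the minus strand and that of *Ly86* chr13:37345095-37345394 on the plus strand, all GRCm38.p6.
Mki67: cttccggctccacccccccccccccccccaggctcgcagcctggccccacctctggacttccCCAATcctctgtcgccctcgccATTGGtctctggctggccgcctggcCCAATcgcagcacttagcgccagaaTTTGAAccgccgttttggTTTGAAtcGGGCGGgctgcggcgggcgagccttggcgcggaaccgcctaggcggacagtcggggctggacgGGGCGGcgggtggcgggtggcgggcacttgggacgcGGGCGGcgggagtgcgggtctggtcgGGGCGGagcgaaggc
Asf1b: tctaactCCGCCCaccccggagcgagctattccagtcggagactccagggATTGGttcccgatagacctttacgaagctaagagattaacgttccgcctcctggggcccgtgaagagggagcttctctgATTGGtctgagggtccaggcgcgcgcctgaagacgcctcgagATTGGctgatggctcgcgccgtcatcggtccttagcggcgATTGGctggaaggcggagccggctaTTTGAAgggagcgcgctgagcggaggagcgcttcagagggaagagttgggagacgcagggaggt
Hmgb2: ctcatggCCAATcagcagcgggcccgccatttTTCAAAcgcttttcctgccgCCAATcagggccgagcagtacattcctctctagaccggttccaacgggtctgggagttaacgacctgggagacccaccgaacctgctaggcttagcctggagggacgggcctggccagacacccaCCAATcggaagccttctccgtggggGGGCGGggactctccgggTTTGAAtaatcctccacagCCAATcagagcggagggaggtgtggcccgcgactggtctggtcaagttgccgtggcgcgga
Samd9l: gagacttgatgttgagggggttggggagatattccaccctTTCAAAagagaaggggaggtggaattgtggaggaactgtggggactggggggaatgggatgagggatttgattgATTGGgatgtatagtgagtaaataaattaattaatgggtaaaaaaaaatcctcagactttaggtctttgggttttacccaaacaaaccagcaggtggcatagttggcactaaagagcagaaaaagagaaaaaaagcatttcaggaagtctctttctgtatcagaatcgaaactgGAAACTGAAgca
Ly86: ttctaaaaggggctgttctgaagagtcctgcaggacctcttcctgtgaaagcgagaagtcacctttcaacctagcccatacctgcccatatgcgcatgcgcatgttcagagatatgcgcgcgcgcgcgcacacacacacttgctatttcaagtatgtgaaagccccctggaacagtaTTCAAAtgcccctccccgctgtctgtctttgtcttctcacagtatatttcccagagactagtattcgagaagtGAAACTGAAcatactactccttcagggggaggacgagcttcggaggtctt
The *Mki67*, *Asf1b* and *Hmgb2* promoters each hold several CCAAT boxes and a CHR form. The *Samd9l* and *Ly86* promoters hold the interferon element after the start, and both also hold a CHR form, with a CCAAT box in *Samd9l*. Of the 5 promoters of members in the macrophage and interferon lists, 3 held the CHR form TTTGAA, 3 held the CCAAT box and 3 held the interferon element. From 100 bases before to 50 after the start, 1 held TTTGAA, 1 held the CCAAT box and 3 held the interferon element. That element occurred in 12.5% of member promoters, 6.70% of those of the other tested unmapped genes and 8.57% of all promoters.

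The macrophage and interferon lists held 3 members each, with median RANKL+UD/Control ratios of 0.388 and 0.531. Over these 6 members the ratio ran from 0.330 to 1.00, which overlaps the range of the cell cycle members, and the difference was not tested. Of the macrophage identity list 46 genes were tested and 38 were lower with RANKL. With RANKL+UD 4 were higher and 23 were lower than with RANKL (9 were higher when libraries were scaled by total counts alone). The 4 were the members *Ly6e* and *Ly86* (log2 0.63 and 0.78) and the non-members *Adgre1* and *Tlr7* (0.22 and 0.23). *Ly6e*, a lipid-anchored surface protein that is also induced by interferon, had 180, 181 and 218 FPKM in Control, 56.6, 62.3 and 63.2 with RANKL and 99.1, 103 and 96.3 with RANKL+UD. The groups did not overlap and RANKL+UD stood at 0.515 of Control (log2 -0.96, SE 0.0633, edgeR adjusted p = 3.65e-11). *Ly86*, the MD-1 protein that pairs with the receptor Cd180, had 24.6, 23.1 and 24.3 FPKM in Control, 5.13, 4.02 and 6.09 with RANKL and 10.1, 9.13 and 8.61 with RANKL+UD. The lectin receptor gene *Clec4a1* was low throughout, at 2.46 ± 0.525, 0.453 ± 0.220 and 0.743 ± 0.232 FPKM (mean ± SD, n = 3), and its rise with UD did not pass the test. Of 49 tested interferon-induced genes 45 were lower with RANKL and 22 were higher with RANKL+UD than with RANKL. Of all tested genes 30.2% and 18.6% were, and 20.2% were lower with RANKL+UD than with RANKL. *Samd9l*, an antiviral gene, had 51.7, 51.8 and 56.4 FPKM in Control, 16.1, 16 and 13.9 with RANKL and 29.1, 28.1 and 27.5 with RANKL+UD, a return to 0.531 of Control. *Ifit2*, which binds viral RNA, behaved alike in size, with 0.291 of Control under RANKL and 0.522 under RANKL+UD. *Slfn9*, of the Schlafen family, differed from both: 8.31, 8.48 and 8.55 FPKM in Control, 4.86, 4.09 and 3.65 with RANKL and 8.48, 8.51 and 8.36 with RANKL+UD, a full return. *Ifi44l*, an interferon-induced gene outside the lists and chosen after its values were seen, fell from 48.9 ± 2.73 to 3.90 ± 0.667 FPKM and stood at 7.57 ± 0.606 with RANKL+UD (mean ± SD, n = 3).

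**Figure D4:**
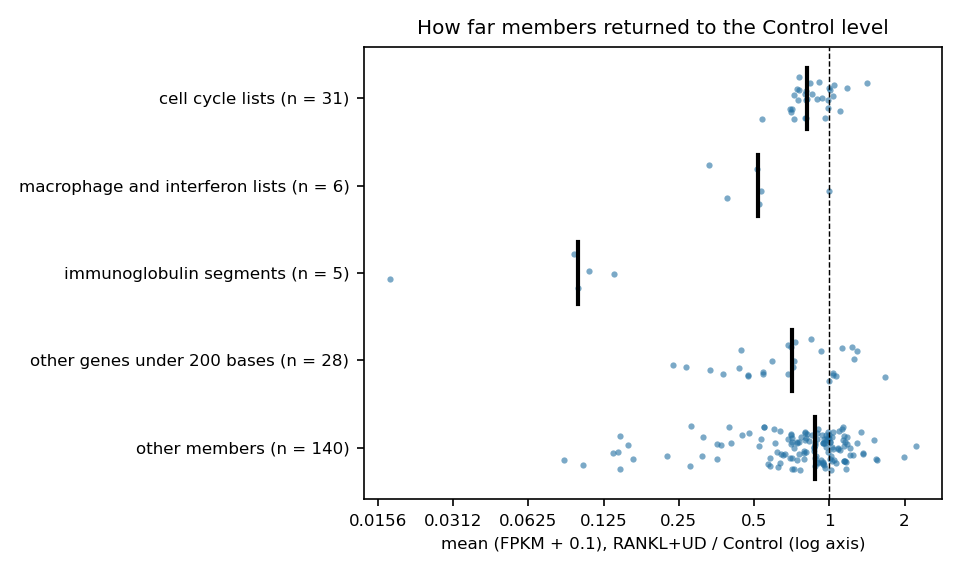
Points are members, placed by the ratio of mean (FPKM + 0.1) in RANKL+UD to Control on a log axis, and thick bars are medians. The medians are 0.816 for the cell cycle lists, 0.519 for the macrophage and interferon lists, 0.0988 for the immunoglobulin segments, 0.708 for the other genes under 200 bases and 0.876 for all other members; the dashed line at 1 is the Control level.

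Regulators of small GTPases, other surface proteins and transport proteins differed widely in how far they returned. *Tagap*, a GTPase activator, had 10.9, 11.0 and 11.1 FPKM in Control, 2.26, 2.52 and 2.10 with RANKL and 3.39, 4.36 and 4.19 with RANKL+UD, 0.368 of Control, and its relative *Tagap1* reached 0.755. *Arhgef39*, an exchange factor, reached 0.579, and the RAB regulators *Tbc1d16* and *Chml* 0.809 and 0.877. Over the 56 tested genes on a list of small GTPase regulators, 37 were lower with RANKL (30.2% of all tested genes were). With RANKL+UD 10 were higher and 18 lower than with RANKL (18.6% and 20.2% of all tested genes). *Smpdl3b*, a membrane-anchored phosphodiesterase that modulates lipid composition and innate immune signalling, had 38.6, 40.4 and 40.2 FPKM in Control, 4.53, 5.75 and 5.59 with RANKL and 9.74, 8.68 and 8.11 with RANKL+UD. It rose from the RANKL level in every library but stayed at 0.225 of Control. The sorting receptor gene *Sorl1* (0.279 of Control), the lectin receptor gene *Cd302* (0.311), the calcium-binding protein gene *Gca* (0.277) and the basement membrane gene *Nid2* (0.146) also stayed low. *Lacc1*, a macrophage enzyme acting on purine nucleosides, reached 0.662, *Endod1* 0.475, *Klrg2* 0.633, and *Bco2*, a carotenoid-cleaving enzyme, 0.703. By contrast the lactate and pyruvate carrier gene *Slc16a1* had 48.7, 48.0 and 50.2 FPKM in Control, 27.8, 28.1 and 28.9 with RANKL and 47.4, 47.4 and 45.1 with RANKL+UD. Its RANKL+UD level was 0.953 of Control, with 2 libraries just under the lowest Control library and 1 further below. *Arl6ip1*, which shapes the endoplasmic reticulum, reached 1.03, the reelin and lipoprotein receptor gene *Lrp8* 0.959, and the transcription factor genes *Crebzf* and *Tal1* 1.13 and 0.967. The log2 difference of *Crebzf* from Control (0.18, SE 0.0749) just missed the threshold (edgeR adjusted p = 0.0524) and passed it in several alternatives, among them the fits without RANKL replicate 1 or 2 (0.18) and without RANKL+UD replicate 2 (0.21).

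The 9 members above Control with RANKL+UD, named in full after their values were seen because they are few, were *Cbx5*, *Ulbp1*, *Zfp280b*, *Klhl42*, *Slc16a4*, *D630023F18Rik*, *Gm48135*, *Gm37261* and the unnamed gene ENSMUSG00000121248. *Gm48135* had 5.38, 10.6 and 4.67 FPKM in Control, 2.96, 2.93 and 3.71 with RANKL and 16.8, 16.2 and 13.1 with RANKL+UD. All RANKL+UD libraries exceeded all Control libraries, which were widely spread. Without Control replicate 2 its fall with RANKL shrank to -0.57 on the log2 scale and did not pass. ENSMUSG00000121248 had 7.03, 9.25 and 4.97 FPKM in Control, 4.22, 3.71 and 3.48 with RANKL and 14.8, 13.7 and 14.1 with RANKL+UD. It stood at 1.99 times Control (log2 0.99, SE 0.180, edgeR adjusted p = 8.17e-05). *Ulbp1*, a ligand of an activating receptor of natural killer cells, had 19.8, 19.0 and 17.6 FPKM in Control, 11.2, 10.6 and 10.1 with RANKL and 21.8, 22.2 and 21.9 with RANKL+UD.

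Members of the immunoglobulin heavy chain locus were among those with the deepest fall and the lowest level relative to Control with RANKL+UD. Relative to RANKL the rise of the 5 immunoglobulin segments was large. Their median RANKL+UD/RANKL ratio was 4.45, beside 1.79 for all members. The joining segments *Ighj1* to *Ighj4*, the diversity segment *Ighd4-1* and the unnamed gene ENSMUSG00000120754 lie on the minus strand of chromosome 12 between 113389913 and 113394158 in the coordinates of the deposited table. The 5 segments are 11 to 100 bases long, shorter than a sequenced fragment. FPKM divides by these lengths, so reads are given instead. *Ighj4* had 252, 314 and 176 reads in Control, 10, 11 and 4 with RANKL and 43, 32 and 28 with RANKL+UD. *Ighj1* had 219, 249 and 178 reads in Control, 4, 3 and 8 with RANKL and 25, 17 and 29 with RANKL+UD. For both segments the groups did not overlap, and RANKL+UD stood at 0.138 and 0.109 of Control. *Ighj2* and *Ighj3* stood at 0.0988 and 0.0951; the rise with UD of *Ighj3* (RANKL reads 9, 3 and 0, RANKL+UD reads 20, 7 and 5) did not pass the test, and it did pass without RANKL replicate 1 (log2 2.75). The rise of *Ighj2* was lost without RANKL replicate 3 (log2 1.22) or RANKL+UD replicate 1 (0.77). *Ighd4-1* had 14, 19 and 27 reads in Control, none with RANKL and 1 in a single RANKL+UD library, so that Control was at least 22.2-fold higher than RANKL against a floor of 3 reads over the group. The rule counted it as returned only through that 1 read. The neighbouring constant region gene *Ighm*, which has a pathway entry and is no member, showed the same order of groups: a mean of 156 FPKM (SD 11.2, n = 3) in Control, 11.2 (SD 1.12) with RANKL and 17.1 (SD 0.957) with RANKL+UD. Of the B cell genes on the lymphocyte list, *Ms4a1* was at 0 in every library, and *Cd79a*, a signalling subunit of the B cell receptor, had 0.227 FPKM (SD 0.0603, n = 3) in Control, 0.0467 (SD 0.0808) with RANKL and 0.0633 (SD 0.0208) with RANKL+UD. Neither passed the expression filter, and their part in the result was not tested. Chromosome 12 carried 17 members, those of this locus among them, which is 8.10% of the members, beside 3.58% of the other tested unmapped genes.

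**Figure D5:**
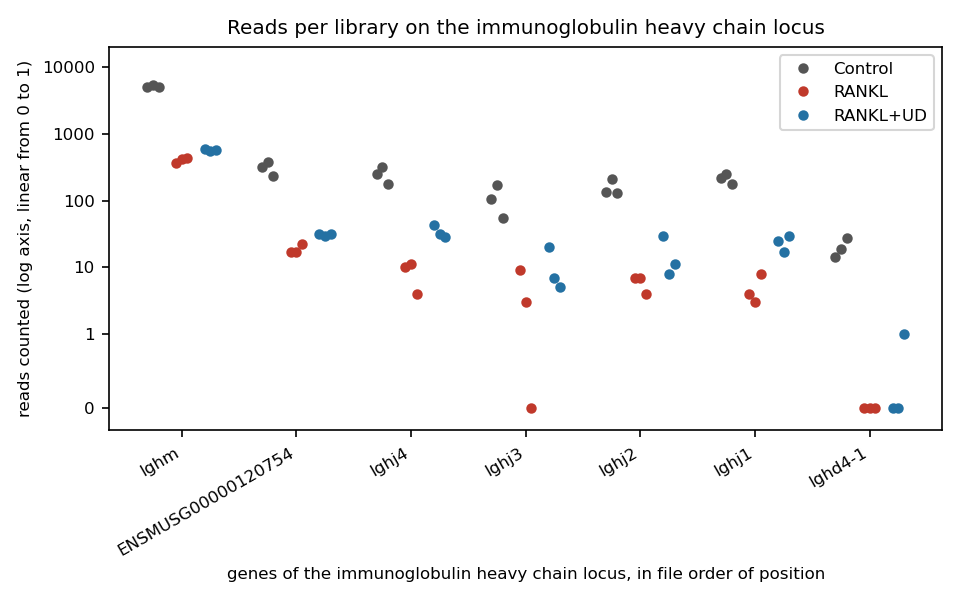
Reads per library (points) on 7 genes of the immunoglobulin heavy chain locus, on a log axis that is linear between 0 and 1, coloured by group. Control libraries are highest for each gene, RANKL+UD libraries lie closer to RANKL than to Control, and *Ighd4-1* has no read in any RANKL library; *Ighm* is shown for comparison and is no member.

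Noncoding and unnamed genes made up much of the rest. By GENCODE M21 type the 210 members were 128 protein-coding genes, 32 long noncoding genes or transcripts to be classified, 18 small RNA genes, 11 pseudogenes, 5 immunoglobulin segments and 16 genes absent from that release. Protein-coding genes were 61.0% of the members and 78.7% of the other tested unmapped genes. *Gm42047*, a long noncoding RNA gene and the most abundant member of that type, had 123.4, 122.6 and 109.7 FPKM in Control, 49.8, 47.1 and 49.8 with RANKL and 109, 106 and 103 with RANKL+UD. It returned to 0.893 of Control; the log2 difference of -0.16 (SE 0.0513, edgeR adjusted p = 0.0112) did not pass without Control replicate 1 (-0.13), Control replicate 2 (-0.14) or RANKL+UD replicate 3 (-0.14). *Gm27003*, annotated antisense to *Gabpb1*, had the largest fitted rise with UD: 2.38, 2.31 and 2.86 FPKM in Control, 0.280, 0.190 and 0.190 with RANKL and 3.90, 2.57 and 2.11 with RANKL+UD, from at most 42 reads in a library. *BE692007*, which overlaps *Ms4a6c* on the opposite strand, had 5.34, 5.42 and 5.04 FPKM in Control, 0.150, 0.230 and 0.240 with RANKL and 0.450, 0.280 and 0.370 with RANKL+UD. Its rise with UD was lost without RANKL replicate 1 (log2 0.56) or RANKL+UD replicate 1 (0.57). In all, 42 members overlap a tested gene on the opposite strand and 32 overlap one on the same strand. The kit marks strand, but the strand setting of the counting is not given in the sources used here, so reads of such pairs may not be separable.

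Short genes entered the set more often than others. Members under 200 exonic bases numbered 33, or 15.7%, beside 5.09% of the other tested unmapped genes, and only 4 of the 33 passed the test for the rise with UD. Genes left out of the rule by name, such as those starting with Mir or Snor, were kept among these other genes. The snoRNA gene *Gm22027* (127 bases, inside *Sf3b4*) had 3.27, 2.79 and 1.48 FPKM in Control, 0.400, 0 and 0 with RANKL and 2.00, 1.93 and 1.37 with RANKL+UD, from at most 7 reads in a library. It passed the test for the rise narrowly and lost the call without any 1 of the 9 libraries apart from RANKL replicate 1 (log2 2.76 to 3.35 in those 8 fits). The snRNA gene *Gm23887* owed its mean of 1.06 FPKM with RANKL+UD to 1 library at 2.85, the others being at 0 and 0.340. *Gm28913*, *Gm29819*, ENSMUSG00000120721 and ENSMUSG00002076650 likewise did not pass the test for the rise, with 9 to 32 reads at most in a library. ENSMUSG00002076650 had no read in any RANKL library, and Control was at least 13.3-fold higher against the same floor. Of the 18 small RNA genes 8 passed the test for the fall and 2 that for the rise (30.2% and 18.6% of all tested genes).

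Annotations that the rule did not use were counted in members and other tested unmapped genes, and some occurred in unlike shares. The other genes still held those that the rule barred from membership by name or by the kinetochore term. A microtubule annotation was carried by 6.67% of members and 1.51% of the others, a chromatin annotation by 6.19% and 1.76%, a spindle annotation by 3.81% and 0.941%, and an innate immune response annotation by 4.76% and 1.77%. The innate immune term was on 10 members, among them *Hmgb2* and the processed pseudogenes *Gm4739* and *Gm6104*. *Hmgb2* and *Gm4739* were also among the 13 members with the chromatin term. Mitochondrion was the rarer term, with 2.86% and 9.27%. Other terms had near-equal shares: nucleus 25.7% and 27.4%, centrosome 4.76% and 3.89%, endoplasmic reticulum 4.29% and 4.71%, and transcription factor activity 1.43% and 1.45%. These shares are descriptions. Any Gene Ontology term was carried by 62.4% of members and 78.5% of the others.

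The directions were also read in libraries left out of the choice. These come from the same 3 groups and are not known to be separate cultures, so the reading is a description. The limits were applied to the means of 2 libraries per group, and the remaining library of each group was then inspected. Leaving out replicate 1, 2 or 3 of each group gave 242, 241 and 241 genes, of which 173, 172 and 174 are among the 210 members. In the libraries left out, RANKL was below Control and RANKL+UD above RANKL in 82.2%, 84.2% and 78.8% of them, beside 42.3%, 42.5% and 42.0% of all tested genes. Both ratio limits were met again by 48.8%, 55.2% and 49.4%.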

How the data were processed

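RNA of RAW264.7 cells was poly(A)-selected, made into 9 strand-marked libraries and sequenced on an Illumina NovaSeq instrument. The authors deposited read counts per gene and FPKM in 1 table with gene annotation. The aligner, the counter and the annotation release are not given in the sources used here. The deposited FPKM equal the counts divided by exonic length and by total counts (100% of values within 0.006). The submitters' processing notes name mm10, but 1472 of 52073 gene IDs shared with GENCODE M21 (GRCm38) have the same start and end, so the build of the table's coordinates is not settled. Promoter sequences were taken from RefSeq.

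The members, gene lists and tests were chosen with earlier results of these data known. Groups followed the sample titles. Counts of genes with at least 1 FPKM in at least 3 libraries (11995) were tested with edgeR 4.0.16 (TMM, quasi-likelihood, all 9 libraries in 1 fit, no covariate, Benjamini-Hochberg, threshold 0.05), checked on simulated data. Log2 values are from this fit and ratios from mean FPKM plus 0.1. Intervals were not drawn for shares over genes. DESeq2 1.42.0, the tool the authors name, limma 3.58.1 on log2 FPKM, RLE size factors, total counts, no filter, other pseudocounts and limits, a replicate block and leaving out libraries were alternatives. Named genes were the members with the largest rise and fall, the highest Control level and up to 4 per list. Also named were those furthest from Control with RANKL+UD, those next to each limit and neighbouring members. In each Gene Ontology term counted, the few members with the highest Control level were named too. Others are said to be chosen after their values were seen. No pair of libraries was alike within sampling noise.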

Additional observations from a re-analysis of the deposited data

How the results depend on the processing

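Each count of members called against Control or RANKL stayed within 1.5 times its value under the alternatives run. DESeq2 called 178 members lower with RANKL and 161 higher with RANKL+UD than with RANKL, and total-count scaling called 184 and 168. Whether replicate numbers pair the libraries is not settled. Correlations of same-numbered deviations were low, at -0.0296 to 0.0973, but 4 of 9 libraries correlated best with their own number in both other groups. With a replicate block 179 members were lower with RANKL, 162 higher with RANKL+UD than with RANKL, and 10 above and 87 below Control; among named genes it changed the calls of Crebzf against Control and Gm22027 against RANKL. Total-count scaling moved the medians of the gene lists; that of the spindle list was -0.93 in place of -0.84 for RANKL against Control and 0.58 in place of 0.50 for RANKL+UD against RANKL. The size of the set depended on the limits. A pseudocount of 1 left 137 genes (122 of them members), fold limits of 0.5 and 2 left 41, TMM scaling 155 and medians in place of means 229. Leaving out 1 library, or 1 replicate number, gave 204 to 244 genes. Without 1 library 170 to 180 members were lower with RANKL, 150 to 165 were higher with RANKL+UD than with RANKL, 8 to 11 were above Control and 77 to 88 below. The share of genes that kept both directions in omitted libraries was 78.8% to 84.2%. With alternatives chosen after the data were seen, 149 members had at least 100 reads in a library and 177 had at least 200 exonic bases. No result turned its direction under any of these settings. The cause of the changes was not tested.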
